A study of Mus musculus with 5 samples.

Results

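Genes named for immune receptors, cytokines, complement and major histocompatibility complex (MHC) molecules were compared between RNA of adult mouse retina and RNA of newborn mouse cortex. The members were taken by symbol: every probe annotated with a single gene symbol that begins like a CD antigen, interleukin, chemokine, colony stimulating factor, Toll-like receptor, interferon or interferon-induced gene, H2 gene, complement component, Fc receptor, lysozyme, Ly6 protein or galectin. This gave 156 probes for 131 genes, out of 11782 named probes for 8944 genes. Of the 131 genes, 123 had a probe with a value on all 5 arrays and were tested, among 8798 tested genes in all.

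The retina RNA was 1 pool from adult C57/B6 mice and the cortex RNA was 1 pool from Swiss-Webster mice on postnatal day 1. Both pools were hybridised together to 5 two-colour Agilent arrays, retina in the dye Cy5 and cortex in the dye Cy3 each time, to learn how far values vary within a platform. Tissue, age, strain and dye change together and cannot be told apart. The arrays are technical repeats, so each p-value below measures error between hybridisations of the same pools and says nothing of the spread between animals. Values are log2 ratios of retina over cortex, given as mean ± SD over n = 5 arrays. The base of the deposited logarithm and the direction of the ratio are likely and not stated; with the direction turned, every sign and every higher or lower would turn too. On the working direction, 7 of 7 measured retina marker genes were higher in retina by the 2-fold test described below. In that test 8 of 9 newborn cortex marker genes were lower, and the other, Neurod2, stood at -0.42 ± 0.01. These lists were written with earlier results known and are no independent support for the direction. Spot intensities were not used here, so a ratio near 0 may stand for equal levels or for a probe near background in both channels, which was not tested.

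The immune system of neural tissue rests on microglia, the resident macrophages, which carry complement, Fc receptors and cytokine receptors and which also clear synapses during development. Interferons and many cytokines act through paired receptor chains and Janus kinases. Interferons switch on a set of antiviral genes through a response element in their promoters. MHC molecules present peptides to T cells, which are rare in healthy retina and brain. Many proteins with a CD number, such as tetraspanins and the sialoglycoprotein Cd24a, are also made by neurons and glia.

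Promoter stretches of interferon-induced members that carry the core of such an element are shown before the ratios. Promoters of 101 of the 131 members were found in a RefSeq table of build GRCm38.p6, among them 13 of the 18 interferon-induced members. The core searched was GAAA, any 2 bases and GAAA again, on both strands. It occurred in the 250 bases before the start in 8 of these 13 genes (61.5%) and in 9 of the 101 members (8.91%). Of all 27025 genes in the table, 936 held it in at least 1 promoter (3.46%), or 978 of 32851 promoters (2.98%). Capitals below mark the matches, which can overlap each other and read TTTC, 2 bases, TTTC where they lie on the strand opposite to the gene. The stretches lie at chr19:34583353-34583436 (plus strand) for Ifit3, chr4:156200855-156200916 (minus strand) for Isg15, chr3:142620584-142620633 (plus strand) for Gbp2, chr3:142559979-142560034 (plus strand) for Gbp3 and chr5:120812593-120812648 (minus strand) for Oas1c. Each is written along its gene.
Ifit3: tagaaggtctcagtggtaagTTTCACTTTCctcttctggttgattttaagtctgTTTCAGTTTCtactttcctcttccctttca
Isg15: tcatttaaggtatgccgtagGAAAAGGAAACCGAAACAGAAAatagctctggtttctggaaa
Gbp2: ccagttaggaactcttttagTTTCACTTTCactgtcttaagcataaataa
Gbp3: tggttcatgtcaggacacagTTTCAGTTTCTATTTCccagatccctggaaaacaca
Oas1c: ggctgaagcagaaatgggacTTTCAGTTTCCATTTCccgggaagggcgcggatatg
A match is a description of the letters and does not show that a factor binds there.

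Few members differed by over 2-fold between the retina pool and the cortex pool. Of 123 tested members, 1 was higher in retina, the galectin-like protein gene Lgalsl, and 1 was lower, Cd24a. In limma's treat test, which asks whether a log2 ratio lies beyond 1 (the 2-fold test below, two-sided, Benjamini-Hochberg adjustment over 8798 genes, threshold 0.05), this is 1.63% of the members, where 6.63% of all genes passed. By direction, the background was 2.80% of all genes higher and 3.83% lower. Without adjustment, 4 members and 688 of all genes reached a p below 0.05. Untested, the mean ratios of 5 members (4.07%) were 2-fold or more, against 9.66% of all genes. In bulk RNA of this kind, fewer cells of a type and less RNA per cell cannot be told apart.

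Most members lay close to 0. The median log2 ratio of the 123 members was 0.04, with the middle 50% of them between -0.12 and 0.18, while that range was -0.30 to 0.23 for all genes. A mean within 0.5 of 0 was found for 101 members (82.1%) and for 72.0% of all genes. The 95% confidence interval of the ratio, which covers array error only, lay wholly inside 2-fold in both directions for 113 members (91.9%) and for 86.6% of all genes. The median SD between arrays was 0.083 for members and 0.085 for all genes. Medians of the members ran from 0.03 on array 3 to 0.09 on array 4.

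**Figure D1:**
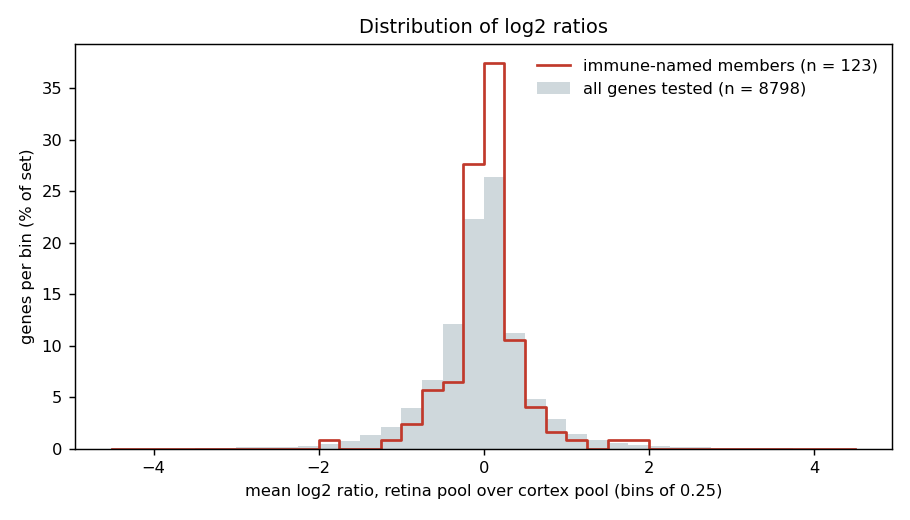
Distribution of the mean log2 ratio, retina pool over cortex pool, as a percentage of genes per bin of 0.25; the red line shows the 123 tested members and the grey bars all 8798 tested genes. The members are drawn in around 0, with 82.1% within 0.5 of it against 72.0% of all genes.

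Small ratios could still be told from 0. Against a ratio of 0, limma's eBayes test called 73 of the 123 members (59.3%), 46 above and 27 below 0. The same test called 73.7% of all genes, 37.0% above and 36.7% below. All 5 arrays had the same sign for 77 members (62.6%), against 73.5% of all genes. Since retina carried the same dye on every array, a dye effect of a probe would repeat and enter these counts, which was not tested.

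Cd24a is a small sialoglycoprotein anchored in the membrane, known from immature neurons and developing lymphocytes. It read -1.80, -2.07, -1.87, -1.61 and -1.52 on arrays 1 to 5. All arrays lay below -1, and the mean of -1.77 ± 0.22 is 3.42-fold lower in retina (adjusted p of limma's 2-fold test 0.000815). Lgalsl read 1.72, 1.75, 1.82, 1.75 and 1.71. Its arrays agree within 0.11, and the mean of 1.75 ± 0.04 is 3.37-fold higher in retina (adjusted p 2.7e-06 in the same limma test). Each of these genes rests on 1 probe.

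The next members by size did not pass the 2-fold test. Ifit3, an antiviral protein with tetratricopeptide repeats, read 1.13, 1.14, 1.72, 1.52 and 2.26. All arrays stood above 1, and the mean was 1.55 ± 0.47 with an adjusted p of 0.127 (limma, 2-fold test), the SD being wider than for most members. Il13ra1, a receptor chain for IL13 and IL4, read -1.28, -1.12, -1.11, -0.93 and -1.14, with a mean of -1.12 ± 0.12 and an adjusted p of 0.372 in that limma test. Ifngr1, the ligand-binding chain of the interferon gamma receptor, read 0.87, 1.18, 1.00, 1.12 and 1.11, with a mean of 1.06 ± 0.12. Its 95% interval ran from 0.94 to 1.18, across the 2-fold line.

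**Figure D2:**
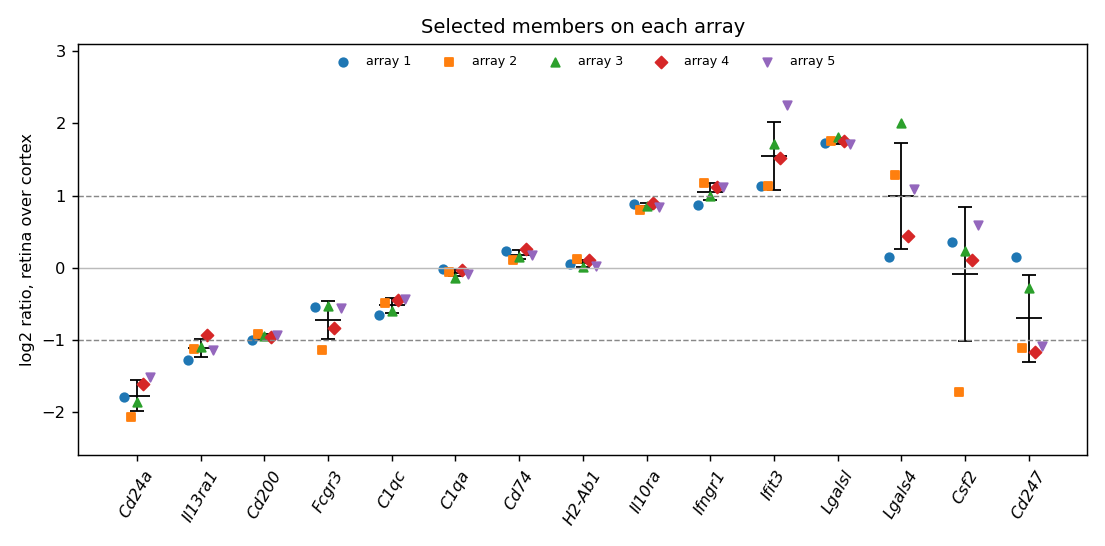
Log2 ratio of retina over cortex for 15 members on each of the 5 arrays (coloured symbols), with the mean and SD in black; dashed lines mark 2-fold, and the members were chosen after their values were seen. Cd24a lies below -1 and Lgalsl above 1 on every array, while Lgals4, Csf2 and Cd247 spread widely between arrays.

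Among complement genes, C1q subunits were slightly lower in retina or near 0, and a complement inhibitor was above 0. C1q is the recognition molecule of the classical pathway and in brain comes mainly from microglia. C1qc read -0.66, -0.48, -0.60, -0.45 and -0.43, with a mean of -0.52 ± 0.10 that differed from 0 (adjusted p of limma's eBayes test 5.35e-05). C1qb stood at -0.20 ± 0.18 and C1qa at -0.07 ± 0.05, the latter within -0.15 and -0.02 on all arrays. C1qc lay below C1qa on every array, while C1qb had no fixed place between them, and differences between the chains were not tested. Cd55, the membrane protein that speeds the decay of complement convertases, was steady between 0.65 and 0.70 on all arrays, with a mean of 0.67 ± 0.03. None of the 5 complement members passed the limma 2-fold test, adjusted or unadjusted.

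No chemokine or chemokine receptor among 7 passed the 2-fold test of limma, and 0 reached an unadjusted p below 0.05. Cxcl16, a membrane-bound chemokine, stood at 0.72 ± 0.17, and its receptor Cxcr6 at 0.08 ± 0.08. Ccl27a, known from epithelia, stood at 0.51 ± 0.05, and Ccl2, which draws monocytes, at 0.03 ± 0.16. Cxcl12, which guides migrating neurons as well as leukocytes, had a mean of -0.54 ± 0.07 made of 2 probes that differed. They read -1.10 ± 0.09 and 0.01 ± 0.05, so the direction for this gene depends on the probe. Ccr2, the monocyte receptor, stood at -0.08 ± 0.30, again with probes on both sides of 0.

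The cytokines themselves lay within 0.5 of 0 for all 9 tested genes. The extremes were Il18, a cytokine of the IL1 family, at -0.48 ± 0.07, and Ifng, the gene of interferon gamma, at 0.48 ± 0.10. Next to them stood Il1a (-0.27 ± 0.32) and Il18bp, the secreted trap for IL18, at 0.03 ± 0.04. Only 3 of the 9 cytokines had the same sign on every array, against 73.5% of all genes. For limma's 2-fold test the count was 0, with or without adjustment.

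Cytokine receptors ran over a wider range than the cytokines, from -1.12 to 1.06. Of 22 tested chains, 9 were above and 3 below 0 by limma's eBayes test, or 54.5%, where 73.7% of all genes were called. In the 2-fold test 0 passed and 1 reached an unadjusted p below 0.05. Besides Ifngr1 and Il13ra1, Il10ra, the ligand-binding chain for IL10, read between 0.80 and 0.89 on all arrays, with a mean of 0.85 ± 0.04, or 1.81-fold. Its 95% interval of 0.79 to 0.92 stayed below the 2-fold line. The chain for type I interferons, Ifnar1, stood at -0.07 ± 0.03, unlike the interferon gamma chain Ifngr1 at 1.06. Il6st, the shared signal chain of the IL6 family, stood at 0.06 ± 0.22 with probes of opposite sign. Il15ra was the second lowest of the group at -0.17 ± 0.26.

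Interferon-induced genes showed no common shift. Of 17 tested, 8 were above and 3 below 0 in limma's eBayes test, or 64.7%, where 73.7% of all genes were called. None passed the 2-fold test and 1 reached an unadjusted p below 0.05 in it. The median was 0.07. Apart from Ifit3, all lay within 0.5 of 0, from Isg15, a ubiquitin-like modifier, at -0.37 ± 0.29, to Gbp3, a guanylate-binding protein, at 0.31 ± 0.05. The probes of Gbp3 read 0.61 ± 0.10 and 0.02 ± 0.10, so its mean depends on the probe. Isg15 read -0.04, -0.26, -0.28, -0.45 and -0.83, so its spread was nearly as wide as its mean. The lowest but for Isg15 was Gbp9 at -0.31 ± 0.22.

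The 8 genes with this core in the window covered the whole span of the tested group, from Isg15 to Ifit3. Ifit3, Gbp3, Ifi203 (0.28 ± 0.07), Oas1c (0.26 ± 0.13), Gbp2 (0.23 ± 0.06), Ifit1bl1 (0.21 ± 0.03) and Oas1a (0.06 ± 0.16) had means above 0, and Isg15 below it. The 5 genes whose window did not hold these letters ran from Ifit2 at -0.19 ± 0.05 to Ifi202b at 0.02 ± 0.11. Whether the sets differ was not tested. Ifit2 and Ifit3 belong to the same family on chromosome 19, yet their ratios stood 1.74 apart, with Ifit2 between -0.27 and -0.15 on all arrays. Related genes such as these, the Gbp genes and the H2 genes may cross-hybridise, which was not tested.

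MHC and antigen presentation genes stayed close to 0. The 7 tested members had a median of 0.06, and 0 passed limma's 2-fold test, adjusted or not. The class II chains H2-Aa (-0.03 ± 0.14) and H2-Ab1 (0.06 ± 0.05) and the peptide-loading chain H2-DMa (0.07 ± 0.12) lay at 0 within their spread or close to it. Cd74, the invariant chain of class II molecules, read 0.23, 0.10, 0.15, 0.25 and 0.17, with a mean of 0.18 ± 0.06 (adjusted p of limma's eBayes test 0.00172). The exception on the lower side was Cd1d1, which presents lipids to natural killer T cells, at -0.53 ± 0.07.

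**Figure D3:**
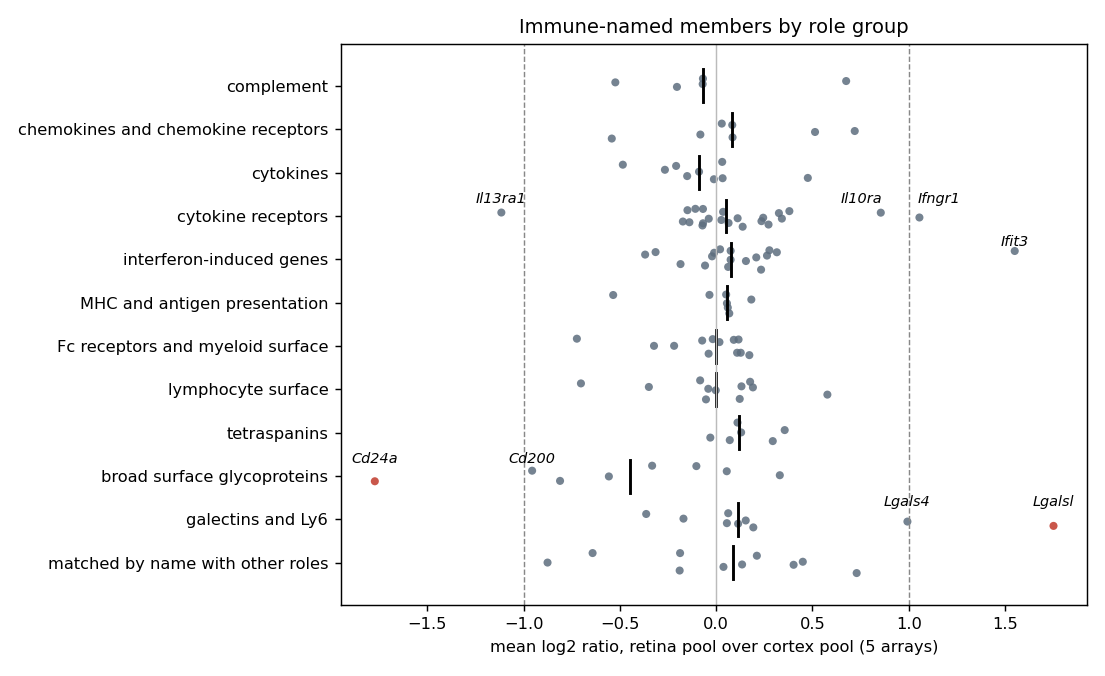
Mean log2 ratio of each of the 123 tested members, retina pool over cortex pool, sorted into 12 role groups; points are genes (red where limma's 2-fold test passed), black bars are group medians and dashed lines mark 2-fold. Points cluster around 0 in most groups, Cd24a and Lgalsl are red, and the broad surface glycoproteins have the lowest median, at -0.45. That median falls between Cd99l2 and Cd47, whose probes disagree.

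Fc receptors and other myeloid surface proteins were near 0 but for Fcgr3. This low-affinity IgG receptor read -0.54, -1.15, -0.53, -0.83 and -0.56, all below 0, with a mean of -0.72 ± 0.27. The signal chain that Fc receptors share, Fcer1g, stood at -0.04 ± 0.04, and the inhibitory Fcgr2b at 0.11 ± 0.05. The lysozyme gene Lyz2 stood at -0.02 ± 0.05, with its 2 probes 0.40 apart. At the ends of the rest were Cd300lg at -0.32 ± 0.28, Cd300lb at 0.13 ± 0.03 and Cd300lf at 0.17 ± 0.05. Of the 12 tested, 0 passed the limma 2-fold test, adjusted or not.

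Lymphocyte surface genes other than Cd2 lay near 0 or varied between arrays. Cd2, an adhesion molecule of T cells, was the highest at 0.58 ± 0.07, followed by the B cell lectin Cd22 at 0.19 ± 0.09. At the other end, the T cell receptor zeta chain Cd247 had a mean of -0.70 ± 0.60, from 0.15 on array 1 to -1.17 on array 4. Cd276, a member of the B7 family that many tissues make, stood at -0.35 ± 0.21. The T cell receptor component Cd3e (-0.08 ± 0.17) and the B cell receptor component Cd79a (0.13 ± 0.06) were close to 0. The costimulatory receptor gene Cd28 gave no usable mean: it read 6.64 on array 1, at the limit of the deposited scale, and -1.95, -0.92, -1.60 and -1.56 on the others. None of the 11 tested passed limma's 2-fold test, adjusted or not.

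Tetraspanins, membrane organisers that most cells make, all lay within 0.5 of 0. In limma's eBayes test 4 of 6 were above 0 and 0 below, where 37.0% of all genes were above. In the 2-fold test 0 passed, adjusted or not. They ran from Cd53 (-0.03 ± 0.06) and Cd37 (0.07 ± 0.07), both of leukocytes, to Cd9 (0.29 ± 0.19) and Cd151 (0.36 ± 0.28). Of 8 broad surface glycoproteins, 6 were below and 1 above 0 in limma's eBayes test, with a median of -0.45, where 36.7% of all genes were below. With Cd24a, they include Cd34, a sialomucin of vessel and blood progenitor cells, at -0.81 ± 0.38, and Cd99l2 at -0.56 ± 0.05. The probes of Cd99l2 read -0.16 ± 0.10 and -0.96 ± 0.06, and those of Cd47 read 0.03 ± 0.25 and -0.69 ± 0.13. The group median falls between these genes, so it depends on the probes. At the upper end of the group stood Cd164 (0.33 ± 0.13) and the hyaluronan receptor Cd44 (0.05 ± 0.07). Both are means of probes that disagreed, 0.62 and 0.04 for Cd164 and 4 probes from -0.37 to 0.37 for Cd44.

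Cd200, a ligand on neurons that restrains myeloid cells, had a mean of -0.96 ± 0.03, and its 2 probes disagreed. The first read -1.95, -1.82, -1.84, -1.88 and -1.80, well beyond 2-fold, and the second read -0.06, -0.03, -0.06, -0.05 and -0.07. With the lower probe alone Cd200 would pass the 2-fold test in limma, at -1.86. Its arrays agree closely for each probe, so the gap is between probes and not between arrays.

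Such disagreement was common. Of the 21 members with several probes on all arrays, the probes differed in sign for 11 (52.4%), against 40.7% of 2086 such genes overall. The median range between probes of a member was 0.60, and 0.38 over all such genes. The widest ranges after Cd200 were those of Cxcl12 at 1.11 and C1qtnf4, a secreted protein with a C1q-like domain, at 0.91. The probes of C1qtnf4 read -0.42 ± 0.12 and -1.33 ± 0.05, both below 0, and with the lower one alone it would pass the 2-fold test in limma.

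**Figure D4:**
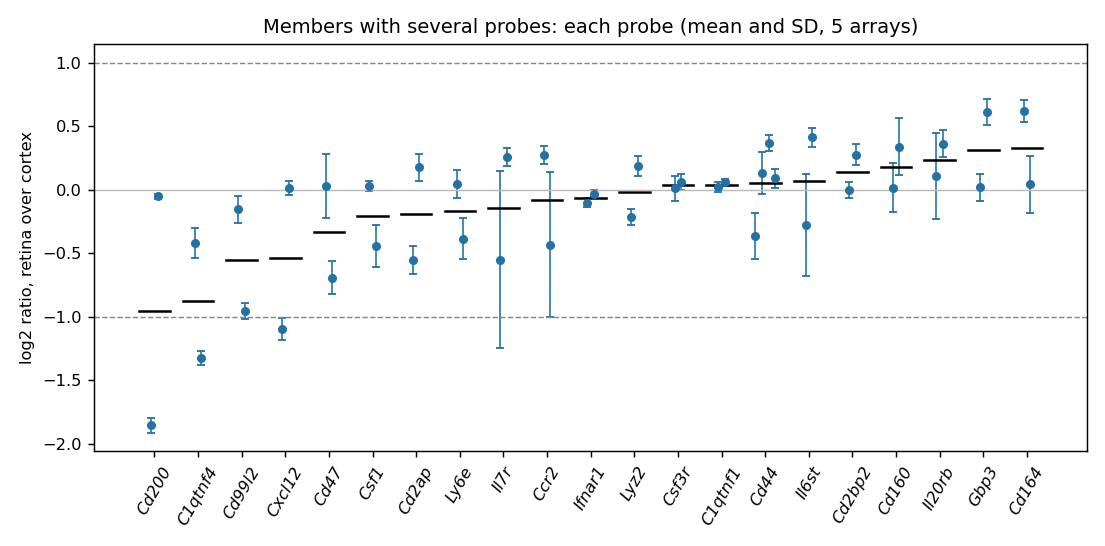
Log2 ratio of retina over cortex for each probe of the 21 members with several probes; points are probe means with SD over 5 arrays, black bars are the gene's mean and dashed lines mark 2-fold. The probes of Cd200 stand at -1.86 and -0.05, the widest gap.

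Of the galectins, which bind galactosides on glycoproteins, Lgals1 (0.06 ± 0.07), Lgals3 (0.06 ± 0.17) and Lgals9 (0.11 ± 0.06) were near 0. Lgals4, known from gut epithelium, read 0.15, 1.29, 2.00, 0.44 and 1.09, a spread too wide for its mean of 0.99 ± 0.73 to be placed against the 2-fold line. Lgals3bp, a secreted galectin ligand, stood at -0.36 ± 0.55. Ly6e, a small anchored protein, stood at -0.17 ± 0.08, with its probes on both sides of 0.

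A further 10 members carry an immune-like name and have other roles, which limits the label. They include the mitochondrial protein C1qbp at -0.64 ± 0.04, the transcobalamin receptor Cd320 at 0.45 ± 0.18 and the steroid dehydrogenase H2-Ke6, named for its place in the MHC region, at 0.73 ± 0.09. All 10 had the same sign on every array, as did 73.5% of all genes, and 0 passed limma's 2-fold test, adjusted or not. Without them, 2 of 113 members passed, or 1.77%.

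The 8 members that were not tested each had no value on array 4. Over the other 4 arrays, 5 of them varied on both sides of 0: Csf3, H2-Eb1, Il16, Il18rap and Tlr1. Il2 read from 0.42 to 1.09, Gbp10 from 0.18 to 1.41 and Cd244a from -0.49 to -0.23. None of the 8 was beyond 2-fold with the same sign on all 4 arrays.

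Other genes of the connected pathways were read from lists, which hold members only for complement (C1qbp and C1qtnf1). Both are among the 10 members with other roles, and without them 8 genes of that list were measured. Of the 10 genes measured in the list of complement regulators and other components, 1 was higher, the complement inhibitor clusterin (Clu, 2.18 ± 0.15). In this list 1 was lower, Masp1, a protease of the lectin pathway (-1.39 ± 0.13). By limma's 2-fold test 2.80% of all genes were higher and 3.83% lower. Without arrays 1 and 4, an alternative chosen after seeing the data, Masp1 stood at -1.37 and did not pass. In the list of antigen processing, 0 of 16 genes passed the limma 2-fold test and 1 reached an unadjusted p below 0.05 in it, with the immunoproteasome subunit Psmb8 at 0.91 ± 0.31, the protease Lgmn at 1.11 ± 0.08 and the chaperone Pdia3 at -0.58 ± 0.03. In the interferon list 0 of 27 genes passed, adjusted or not in limma, the median was 0.05, and the lowest was Mx2 at -0.64 ± 1.01.

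In the Toll-like receptor and NF-kB list, 1 of 23 genes was higher, Tnfaip3, the deubiquitinase that shuts off NF-kB, at 1.52 ± 0.18. With arrays scaled to the same median absolute ratio, Tnfaip3 stood at 1.55 and did not pass. In the same list 1 was lower, the inhibitor Nfkbib at -1.34 ± 0.04. Of 26 cytokine receptor signalling genes, 1 was higher, Crlf3, at 2.06 ± 0.14. The stem cell factor gene Kitl (-2.23 ± 0.14) and its receptor Kit (-1.58 ± 0.20) were both lower. Over all genes, 2.80% were higher and 3.83% lower in the same 2-fold test. The medians of the pathway lists lay between 0.05 and 0.17.

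Marker lists of immune cells were measured in part. Of 31 microglia and macrophage markers 12 were measured, with a median of -0.06. In limma's 2-fold test 1 of them was higher, where 2.80% of all genes were. It was Laptm5, a lysosomal protein of blood cells, at 1.49 ± 0.05. The defining transcription factor Spi1 stood at -0.05 ± 0.05 and the pan-leukocyte Ptprc at 0.03 ± 0.11. The microglial markers Fcrls (-0.73 ± 0.09), Sall1 (-0.33 ± 0.05), Olfml3 (-0.13 ± 0.25) and Tmem119 (0.41 ± 0.12) pointed both ways and did not pass. Of these 12 genes, 5 are members too, namely the C1q chains, Fcer1g and Lyz2. No gene passed the 2-fold test of limma, adjusted or not, among 4 T and NK cell, 8 B cell and 7 granulocyte and mast cell markers. All 4 of the T and NK cell markers and 2 of the B cell markers (Cd79a and Cd22) are members already described. Their extremes were Cd247 and Cd2, Blnk (-1.01 ± 0.59) and Jchain (0.55 ± 0.13), and S100a9 (-0.46 ± 0.12) and Hdc (0.87 ± 0.01). The value of Hdc is the mean of 2 probes at 0.13 and 1.61. Among 11 measured vessel genes 3 were higher (1 with arrays scaled in that way), led by Flt1 at 1.44 ± 0.08, where 2.80% of all genes were higher. Another of the 3, Slc2a1, is the mean of 2 probes at 0.05 and 2.53. The median of the vessel list was -0.10, and the lowest was Eng at -0.53 ± 0.05. The part of these cells in the members' ratios was not tested.

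**Figure D5:**
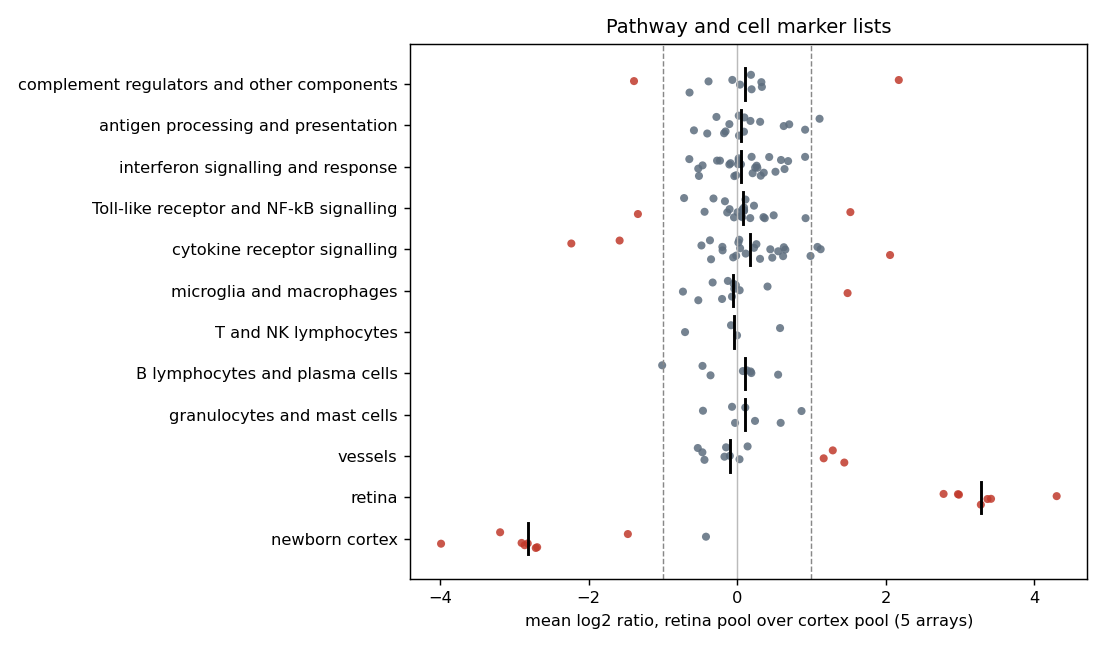
Mean log2 ratio, retina pool over cortex pool, of each measured gene in 12 pathway and marker lists; red points passed limma's 2-fold test, black bars are list medians and dashed lines mark 2-fold. The retina list (median 3.28) and the newborn cortex list (median -2.82) stand far from 0, and the immune cell lists lie around it.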

How the data were processed

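The authors deposited 1 value table with a column per array and 21446 probes, read here as log10 ratios made from the 2 dye channels of each array, since the values stop exactly at 2 and -2. How the authors made these log10 values (background correction, dye normalization, filters, software) is not given in the sources used here. Slide and scan dates were not used. The deposited column medians lay between -7.32e-05 and 0. To obtain log2 ratios, each value was multiplied by 3.32, and an exact 0 (174 to 1068 an array) was read as no value. Of 11813 probes with 1 gene symbol, 11782 were matched by gene identifier to RefSeq (GRCm38.p6). For each gene, probes measured on all 5 arrays were averaged.

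An intercept was fitted with limma 3.58.1 in R 4.3.3 (lmFit), tested with treat against 2-fold and with eBayes against 0, and adjusted by Benjamini-Hochberg over 8798 genes. The fit was tested on simulated data. Members, role groups and lists were chosen with earlier results of these data known. Named genes are members past the 2-fold test, the extremes of each role group (1 at each end, 2 in groups of 6 or more), measured microglia markers and the extremes of each list; others named as examples were chosen after their values were seen.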

Additional observations from a re-analysis of the deposited data

Results flagged for a closer look

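In 10 of 150 measures checked (123 members and the named list genes), 1 array stood far from the other 4, and chance gives about 5%; over all genes the share was 8.01%. Cd28 read 6.64 on array 1, the limit of the deposited scale, and between -1.95 and -0.92 elsewhere. Csf2, the gene of a myeloid growth factor, read -1.72 on array 2 and between 0.10 and 0.59 elsewhere, which sets the sign of its mean of -0.09 ± 0.93; without that array it stood at 0.32. C1qb read -0.52 on array 2 and between -0.18 and -0.10 elsewhere, with a mean of -0.13 without that array. On array 5, Cd276 read -0.72 (elsewhere -0.29 to -0.20), Cd47 -0.46 (-0.32 to -0.28) and Cd1d1 -0.41 (-0.59 to -0.55). On array 4, Oas1c read 0.48 (elsewhere 0.17 to 0.25) and Cxcr6 0.23 (0.02 to 0.06). Among the other list genes, Clu read 2.44 on array 5 (elsewhere 2.07 to 2.14) and Kitl -2.48 on array 1 (elsewhere -2.22 to -2.13).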

How the results depend on the processing

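Cd24a and Lgalsl passed under all 18 alternatives but the reading of the values as log2. Each rests on 1 probe with a value on every array. The settings on probe choice and missing values therefore could not change their ratios, and the minimum of 1.5-fold is a looser test. The log2 reading left 0 members past the 2-fold test, 0 higher and 0 lower, and 2 of the 26 list genes. The median probe gave 4 members, 3 of them lower, with Cd200 and C1qtnf4 added. For a gene with 2 probes that setting takes the lower probe, so it leans towards lower calls. The probe with the smallest SD gave 2 lower. A minimum of 1.5-fold gave 10 of 123 members, of which 6 were higher and 4 lower, where 16.0% of all genes passed. With the steadiest probe alone Cxcl12 turned to 0.012 and Ly6e to 0.046. The fits that each left out 1 array gave 2 to 2 members past the 2-fold test, 1 to 1 higher and 1 to 1 lower, 64 to 71 past the test against 0, and 25 to 26 list genes. Without arrays 1 and 4, chosen after seeing the data, 2 members passed and Masp1 stood at -1.37, no longer past the test. Tnfaip3 also fell below it with arrays scaled alike, at 1.55. Each value is a ratio of the 2 pools on the same array, so retina and cortex are paired within every array. Precision between hybridisations is limited by having 5 arrays, and 1 pool per tissue leaves the spread between animals unmeasured. Signal over background is not known.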

Other observations

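A further 12 probes carry several gene symbols of which at least 1 fits the rule for members, and they entered no comparison. Their mean log2 ratios ran from -0.55 to 0.50, with a median of -0.11, so 0 of them reached 2-fold in either direction.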
